A study of Mus musculus with 8 samples.

Results

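Among lumbar spinal cord microglia of A20 cKO mice, 172 of 5033 cells held RNA of Il12b, the gene of the cytokine subunit IL-12p40. These Il12b+ cells were chosen by that RNA alone. A barcode of the 4 A20 cKO libraries was counted with at least 1000 unique molecular identifiers (UMIs, each marking 1 captured RNA molecule), at least 500 genes, at most 10% mitochondrial UMIs and at least 1 Il12b UMI. The same limits without Il12b kept 14626 of 14883 barcodes over all 8 libraries, and 12 of the 9593 kept control cells held Il12b. The levels of Il12b itself are therefore a description with no test, while the other genes of these cells were compared with cells of the same library that held no Il12b UMI at a matched total of UMIs.

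The study asked how A20, the protein made from Tnfaip3, bears on the division of spinal microglia after nerve injury. All animals were young adult C57BL/6 mice of both sexes with Cx3cr1-yfp-creER/+, in which YFP and a tamoxifen-inducible Cre sit at the Cx3cr1 locus. A20 cKO animals were in addition Tnfaip3 fl/fl, control animals were not, and the methods give tamoxifen for recombination. Each genotype had 1 library from naive animals and 1 library each from 1, 2 and 3 days after bilateral sciatic nerve transection, made from YFP(+) cells sorted from the pooled lumbar cords of 3 animals. Cre was driven by Cx3cr1, which other macrophages and monocytes also use, so the sort could also take those cells. There was 1 library per group, and neither animals nor preparations were replicated.

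IL-12p40 is secreted by activated macrophages, dendritic cells and microglia. It pairs with p35, made from Il12a, to form IL-12, which drives interferon-gamma production by T and NK cells, or with p19, made from Il23a, to form IL-23, which sustains T cells that produce IL-17. It can also be released without a partner. Il12b is switched on by Toll-like receptor and cytokine signals through NF-kB together with IRF and C/EBP factors, and A20 is an enzyme that edits ubiquitin chains and holds NF-kB signalling in check. In mice Il12b (ENSMUSG00000004296) lies on chromosome 11 from 44400063 to 44414033 on the plus strand (GRCm38).

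The 8 libraries held between 1620481 and 15817426 UMIs in kept cells. The median kept cell had between 2780 and 4080 UMIs in the control libraries and between 2824 and 4274 in the A20 cKO libraries. Some barcodes occurred in more than 1 library, between 18 and 62 per A20 cKO library, and these included 9 of the 172 Il12b+ cells. Of these 9 barcodes, 2 held Il12b in another library too. Without shared barcodes the A20 cKO day 1 library held 79 Il12b UMIs in place of 118. Levels are given as CPM, the UMIs of a gene scaled to a common library total. Tnfaip3 was read at 24.1 CPM in the control naive library and at 25.3, 6.83 and 20.3 CPM on days 1, 2 and 3, and in A20 cKO at 47.4 CPM when naive and 42.3, 52.4 and 67.7 CPM on those days. The libraries count RNA at its 3′ end, and where the floxed segment of Tnfaip3 lies relative to that end is not given in the sources used here, so these counts do not check the deletion.

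Il12b+ cells were found in every A20 cKO library. They made up 59 of 2922 cells in naive animals, or 2.02% (95% interval 1.54 to 2.60%), 24 of 886 cells on day 1, or 2.71% (1.74 to 4.004%), 59 of 667 cells on day 2, or 8.85% (6.80 to 11.3%), and 30 of 558 cells on day 3, or 5.38% (3.66 to 7.59%). The day 2 share was the highest and the naive and day 1 shares were the lowest. With at least 2 Il12b UMIs required, day 3 was the highest at 2.51%, followed by day 2 at 1.80%. In the control libraries 0 of 568 naive cells held Il12b, which allows a share of up to 0.528% (here and for other counts of 0 the limit is that of 3 counts), and the shares after injury were 6 of 3323 (0.181%), 3 of 3585 (0.0837%) and 3 of 2117 (0.142%). The 95% intervals are those of Clopper and Pearson (exact) for a share, of Newcombe for a difference between shares and exact Poisson for a level, and they cover counting error only, not the variation between animals.

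A20 cKO minus control, the share was higher by 2.02 percentage points in naive animals (1.21 to 2.60), 2.53 on day 1 (1.62 to 3.82), 8.76 on day 2 (6.83 to 11.2) and 5.23 on day 3 (3.63 to 7.43). Within the A20 cKO libraries, day 2 was above naive by 6.83 points (4.82 to 9.27) and above day 1 by 6.14 points (3.82 to 8.69). Day 1 and naive, neighbours in that order, differed by 0.690 points with an interval that spanned 0 (-0.364 to 2.06). Day 3 was above naive by 3.36 points (1.67 to 5.60) and below day 2, the day 3 minus day 2 difference being -3.47 points (-6.34 to -0.549).

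The chance of catching an Il12b molecule grows with depth, and day 2 and day 3 had the deepest A20 cKO cells. With every cell thinned to 2000 UMIs and shallower cells left out, the shares were 1.49% (39 of 2612 cells), 1.69% (14 of 830), 5.43% (34 of 626) and 3.16% (17 of 538) in A20 cKO naive, day 1, day 2 and day 3. The control shares at that depth were 0, 0.0930, 0.0287 and 0.160%. Day 2 remained above naive, by 3.94 points (2.33 to 6.04), and the interval between day 3 and day 2 then spanned 0 (-4.65 to 0.116). Kept barcodes with fewer than 2 of 6 microglia markers, which could show the level of free RNA, were too few to read: 0 of 26 held Il12b in all libraries together, which allows a share of up to 11.5%, at a median of 1302 UMIs against 4038 in Il12b+ cells.

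The summed level gave the same order of the 4 A20 cKO libraries. Il12b stood at 23.4 CPM (20.4 to 26.8) in A20 cKO naive, 39.0 CPM (32.3 to 46.7) on day 1, 140.4 CPM (127.4 to 154.4) on day 2 and 54.3 CPM (45.6 to 64.2) on day 3, from 209, 118, 426 and 138 UMIs. In the control libraries it stood at 0, 0.498, 0.253 and 0.549 CPM, from 0, 7, 4 and 4 UMIs. A single day 2 cell held 191 Il12b UMIs among 7666 UMIs in all, 44.8% of the Il12b UMIs of its library. Without the cell with most Il12b in each library, the A20 cKO levels were 20.8, 28.1, 77.7 and 43.3 CPM, with day 2 still the highest.

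**Figure D1:**
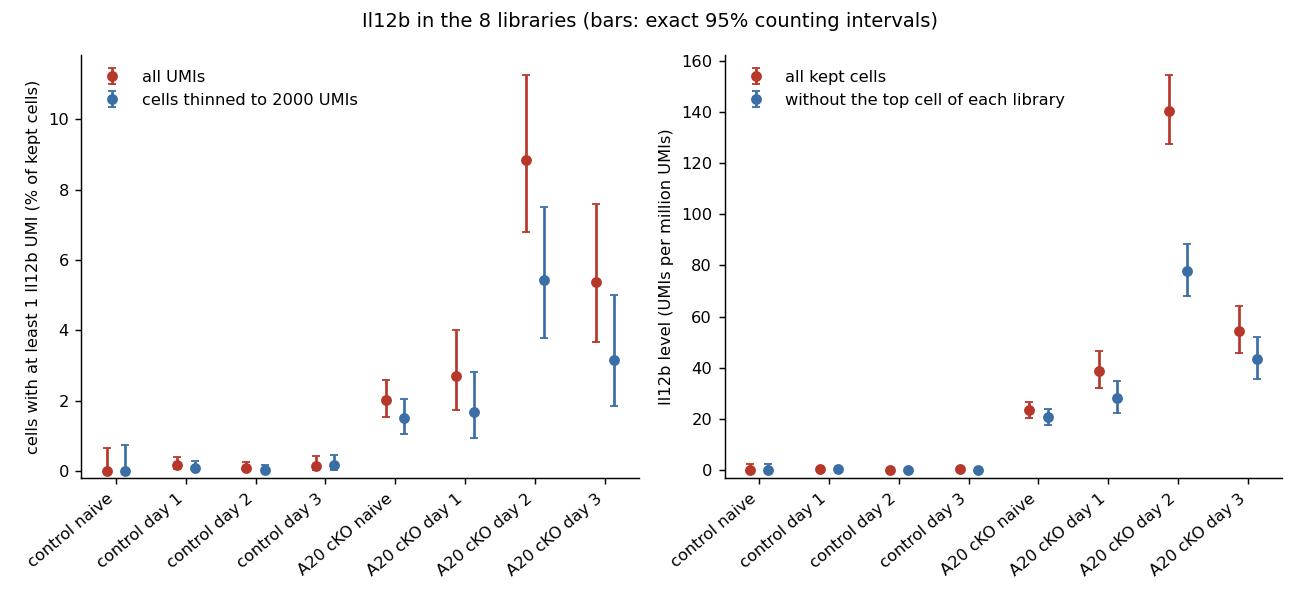
Il12b in the 8 libraries. The plot gives the percentage of kept cells in which Il12b was found and the summed Il12b level, in CPM, for control and A20 cKO animals that were naive or 1, 2 or 3 days after nerve injury; points are single libraries and bars are 95% counting intervals, in red for all data and in blue after thinning to 2000 UMIs (share) or without the top cell of each library (level). All 4 A20 cKO libraries lie above all 4 control libraries, and day 2 is highest, at 8.85% and 140.4 CPM.

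Il12b RNA was unevenly spread over the cells that held it. Of the 172 Il12b+ cells, 119 (69.2%) held a single Il12b UMI, 21 held 2 to 4 and 32 held 5 or more. Those 32 cells carried 723 of the 891 Il12b UMIs, or 81.1%. They numbered 12 of 2922 cells in naive animals, 5 of 886 on day 1, 9 of 667 on day 2 and 6 of 558 on day 3, shares of 0.411, 0.564, 1.35 and 1.08%, so cells rich in Il12b were present in every A20 cKO library. No control cell reached 5 UMIs, 0 of 9593, which allows a share of up to 0.0313%, and the highest control count was 2. The cells just inside the threshold, with 1 Il12b UMI, had a median of 3897 UMIs, and those just outside it, with 0, a median of 3092.

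**Figure D2:**
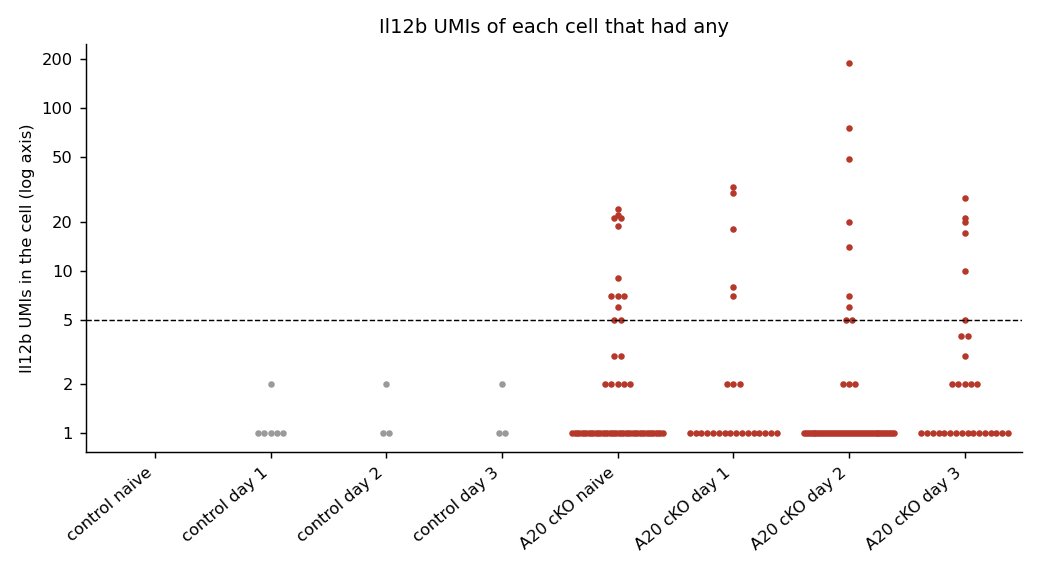
Il12b UMIs per Il12b+ cell. Each point is 1 Il12b+ cell of an A20 cKO library, placed by its number of Il12b UMIs on a log axis, control cells with Il12b are drawn in grey, and the dashed line marks 5 UMIs. Most cells sit at 1 UMI, 13 A20 cKO cells reach 20 or more, the highest has 191, and no control cell passes 2.

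The Il12b+ cells held the markers of microglia. All 171 Il12b+ cells of the comparison described next held at least 3 of 9 microglia markers, and C1qa was found in 171 of 171. The summed microglia markers stood at 25394, 21829, 21819 and 24179 CPM in naive, day 1, day 2 and day 3 Il12b+ cells, and at 27925, 24673, 23731 and 28508 CPM in their matched cells, lower in the Il12b+ cells of every library. Of the 8 markers of conventional dendritic cells, another source of IL-12p40, 12 UMIs were found in all Il12b+ cells and 2 in matched cells, with Clec9a, Cd209a and Clec10a at 0, 8 of the 12 on day 3, and Ccr7 at 5 UMIs in 2 cells. Of the monocyte markers Ly6c2 and Chil3 were at 0, Ccr2 had 1 UMI against 2, Fn1 5 against 3 and Plac8 71 against 71, while Ms4a4c, which interferon also raises in microglia, had 242 against 91. Plac8 was found in 35 Il12b+ and 27 matched cells. Border macrophage markers had 1 UMI in each class, lymphocyte markers 1 against 0, neutrophil markers 22 against 17, endothelial markers 24 against 30, astrocyte markers 13 against 19, neuron markers 1 against 2, choroid and ependyma markers 7 against 13 and oligodendrocyte markers 207 against 220. At least 3 markers of conventional dendritic cells were held by 1 Il12b+ cell, on day 3, and by 0 matched cells. For neutrophils these counts were 2 and 0, and for oligodendrocytes 10 and 9. For monocytes and for endothelial cells they were 0 and 1.

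For the comparison of classes, 171 of the 172 Il12b+ cells (59, 23, 59 and 30 in naive, day 1, day 2 and day 3) were paired 1 to 1 with a cell of the same library without Il12b and with nearly the same number of UMIs. Median UMIs were then 3095 against 3096, 3600 against 3598, 4792 against 4791 and 4917 against 4919. UMIs were summed per library and class, and edgeR's quasi-likelihood test with the library as a block asked which genes differed between the classes in the same way over the 4 libraries. The libraries are 4 conditions, so its p-values set the class difference against the spread of that difference over naive, day 1, day 2 and day 3. The test estimates this spread in part from other genes, and its p-values say nothing of separate groups of animals. A printed SE is the log2 difference divided by the square root of the test's F. For Ccl4 it was 0.24, while the log2 ratios of the 4 libraries were 5.71, 3.41, 4.91 and 2.55. A small p therefore does not mean that the 4 ratios were alike. Of 3219 genes with at least 80 UMIs over the 8 sums, 100 were higher in Il12b+ cells (3.11%) and 19 were lower (0.59%), together 3.7%, at an adjusted p under 0.05. The counts called in each list below are to be set beside these shares. DESeq2 on the same sums called 37 higher and 0 lower, with 119 and 36 at an unadjusted p under 0.05. Without the naive library the edgeR counts were 33 and 1, and without day 3 they were 66 and 6.

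CC chemokines were higher in Il12b+ cells. Of 13 listed genes 8 had enough UMIs to test, 7 were higher and none was lower, and the median log2 difference of the 8 was 1.40, the highest of all lists, against -0.02 over all genes tested. Ccl4, a chemokine that draws T cells and macrophages, had the largest difference of the genes named here. Its level was 2127, 3346, 2342 and 4388 CPM in Il12b+ cells of naive, day 1, day 2 and day 3 animals, against 38.2, 309, 76.2 and 746 CPM in matched cells. The classes did not overlap, and the log2 difference was 3.80 (SE 0.24, adjusted p = 2.56e-11, edgeR), higher in 4 of 4 libraries. Ccl3, a close relative, stood at 567, 1161, 959 and 1252 CPM against 66.8, 136, 36.5 and 291 CPM, again without overlap, a log2 difference of 3.14 (SE 0.23, adjusted p = 3.31e-10, edgeR, 4 of 4 libraries). At the level of cells, 88 of 171 Il12b+ cells (51.5%) held Ccl4 against 41 of 171 matched cells (24.0%), a difference of 27.5 points (17.3 to 36.9).

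The CCR2 ligands, which recruit monocytes, were higher too. Ccl2 was read at 529, 2753, 791 and 1380 CPM in Il12b+ cells against 339, 358, 451 and 348 CPM (log2 1.50, adjusted p = 2.69e-05, edgeR, 4 of 4 libraries), so the classes did not overlap and the day 1 library was furthest apart. Ccl12, a mouse chemokine of the same receptor, was at 3968, 9495, 5004 and 5767 CPM against 1841, 3073, 3457 and 1392 CPM (log2 1.31, adjusted p = 3.12e-07, edgeR, 4 of 4 libraries), also without overlap. Ccl7 was at 57.2, 358, 82.7 and 320.0 CPM against 42.9, 74.1, 13.3 and 71.0 CPM; it was higher in 4 of 4 libraries (log2 1.92, adjusted p = 0.000199, edgeR) but its naive value in Il12b+ cells lay within the range of matched cells. Ccl5 (log2 1.08, adjusted p = 4.03e-07) and Ccl9 (1.05, 2.62e-05) were higher in 4 of 4 libraries, whereas Ccl6 had a log2 difference of -0.62 that did not pass (adjusted p = 0.441).

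All 3 CXC chemokines that could be tested, of 10 listed, were higher, with a median log2 difference of 1.10. Cxcl10, an interferon-induced ligand of CXCR3 that attracts T cells, was at 1540.3, 2210.1, 1647 and 2283 CPM in Il12b+ cells and at 539, 61.7, 457 and 405 CPM in matched cells. The classes did not overlap, and the log2 difference was 2.23 (SE 0.21, adjusted p = 4.79e-08, edgeR, 4 of 4 libraries). Cxcl13, a B cell chemoattractant, had a log2 difference of 1.10 (adjusted p = 0.000371) and Cxcl16 of 0.83 (adjusted p = 0.000154), each higher in 4 of 4 libraries. With at least 2 Il12b UMIs required, Cxcl10 and Cxcl16 were called and Cxcl13 was not, while at 5 or more all 3 were called. Of the 3, 2 were called without the naive library and 2 by DESeq2.

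Of 21 listed cytokines 4 could be tested and 1, Tnf, was higher. Tnf, the classical inflammatory cytokine, was at 315, 309, 169 and 576 CPM in Il12b+ cells against 38.2, 74.1, 46.4 and 114 CPM. No Il12b+ value fell within the range of matched cells, and the log2 difference was 2.34 (SE 0.23, adjusted p = 9.07e-08, edgeR, 4 of 4 libraries). Il1a had a log2 difference of 0.30 that did not pass (adjusted p = 0.793). The other cytokines were sparse: Il6 was found in 12 Il12b+ and 8 matched cells and Il1b in 7 and 7, and Il10 and Nos2 (the inducible nitric oxide synthase) in 0 of 171 of each, which allows a share of up to 1.75%.

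The subunits that pair with IL-12p40 were not found in these cells. Il12a and Il23a were each at 0 of 171 Il12b+ cells and 0 of 171 matched cells, again with an upper limit of 1.75%. Over all 14626 kept cells Il12a had 1 UMI, none of it in A20 cKO, and Il23a had 10, of which 2 were in A20 cKO, both on day 1. Il23r had none, Il12rb1 had 10 UMIs of which 3 were in A20 cKO, and Il12rb2, the signalling chain of the IL-12 receptor, had 102 of which 74 were in A20 cKO. Il12rb2 stood at 3.81, 3.30, 4.94 and 5.90 CPM in the A20 cKO libraries and at 0.617, 0.640, 0.569 and 1.24 CPM in the control libraries. The values of the genotypes did not overlap. However, the control naive value was 1 UMI, and its interval of 0.0156 to 3.44 CPM reached above the A20 cKO day 1 value. At this depth the data do not show whether Il12a or Il23a RNA was present below the limit, and they hold no measure of protein.

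Il27, which encodes the p28 subunit of IL-27, a cytokine of the same family, was present in more Il12b+ cells. It was found in 27 of 171 Il12b+ cells (15.8%) and 4 of 171 matched cells (2.34%), a difference of 13.5 points (7.57 to 19.8). The counts were 9 against 2, 4 against 1, 7 against 1 and 7 against 0 in naive, day 1, day 2 and day 3, higher in 4 of 4 libraries. Ebi3, which encodes the partner of p28, was found in 20 Il12b+ and 25 matched cells. Il27 had too few UMIs for the test across genes, so this is a count of cells with a counting interval.

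Interferon-stimulated genes had the most calls of any list. Of 34 listed genes 31 were tested, 16 were higher and none lower, the median log2 difference was 0.70, and 24 were higher in all 4 libraries, where 11.2% of all genes tested were. Rsad2, which encodes the antiviral enzyme viperin, was at 319.5, 272, 271 and 398 CPM in Il12b+ cells against 85.9, 49.4, 66.3 and 71.0 CPM, without overlap (log2 2.14, SE 0.22, adjusted p = 1.29e-07, edgeR, 4 of 4 libraries). Ifit1, which binds viral RNA caps, was at 296, 444, 248 and 434 CPM against 52.5, 37.0, 99.4 and 99.5 CPM, also without overlap (log2 2.07, SE 0.24, adjusted p = 1.25e-06, edgeR, 4 of 4 libraries). Ifit2 (log2 1.47), Ifit3 (1.45), Oasl1 (1.43), Usp18 (1.36), Isg15 (1.07) and Irf7 (0.70) were higher as well, Ifit3 with the reservation that it is nearly identical to Ifit3b. Fewer were called higher without naive (9), without day 3 (13) and by DESeq2 (10).

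The promoters of Il12b and of the strongest interferon-linked genes named above are printed to show the motif that interferon-activated factors bind. Sequences are the 250 bases before the RefSeq start (GRCm38.p6), 5′ to 3′ on the strand of the gene, in lower case, with a match to the letters GAAA, any 2 bases and GAAA again (a form of the interferon-stimulated response element, ISRE, searched on both strands) in capitals. In Rsad2 and Ifit1 the match is on the opposite strand, so its complement is what appears in capitals. The genes were chosen after their values were seen, and Ccl4, Ccl7 and Cd69 had no entry.
Il12b, chr11:44399813-44400062, plus strand: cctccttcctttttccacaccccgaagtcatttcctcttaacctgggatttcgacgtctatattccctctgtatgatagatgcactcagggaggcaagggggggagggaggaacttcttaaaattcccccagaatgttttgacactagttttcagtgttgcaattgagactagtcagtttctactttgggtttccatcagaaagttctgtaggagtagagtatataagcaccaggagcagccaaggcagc
Cxcl10, chr5:92348890-92349139, minus strand: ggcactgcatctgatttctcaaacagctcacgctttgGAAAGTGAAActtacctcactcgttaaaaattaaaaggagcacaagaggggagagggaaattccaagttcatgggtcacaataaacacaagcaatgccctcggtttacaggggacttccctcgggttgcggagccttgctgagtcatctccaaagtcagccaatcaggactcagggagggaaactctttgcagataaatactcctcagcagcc
Rsad2, chr12:26456453-26456702, minus strand: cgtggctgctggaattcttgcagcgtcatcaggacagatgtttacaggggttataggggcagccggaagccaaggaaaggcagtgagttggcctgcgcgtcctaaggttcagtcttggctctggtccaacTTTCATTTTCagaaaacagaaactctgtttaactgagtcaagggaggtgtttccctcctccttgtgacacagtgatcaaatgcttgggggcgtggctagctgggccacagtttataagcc
Ifit1, chr19:34640639-34640888, plus strand: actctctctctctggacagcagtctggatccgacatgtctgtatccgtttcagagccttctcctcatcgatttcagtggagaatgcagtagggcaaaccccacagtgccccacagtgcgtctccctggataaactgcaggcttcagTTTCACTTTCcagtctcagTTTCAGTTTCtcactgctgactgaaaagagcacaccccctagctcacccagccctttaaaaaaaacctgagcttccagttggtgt

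The ISRE match in Cxcl10 began 213 bases before the start, that in Rsad2 120 bases before it, and Ifit1 had matches at 104 and 85 bases, while Il12b had none in this window. Of 27025 promoters 3.04% held a match, of the 2495 promoters of tested genes 3.93%, and of the 70 promoters of genes higher in Il12b+ cells 22.9% (16 promoters). A loose NF-kB motif, GGG followed by any 5 bases and CC on either strand, was held by 45.4% of all promoters, 61.4% of those of tested genes and 54.3% of those of the genes higher in Il12b+ cells (38 promoters), and by none of the 250 bases of Il12b. A match is a string of letters and not a measured binding site, and distal enhancers were outside the window.

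**Figure D3:**
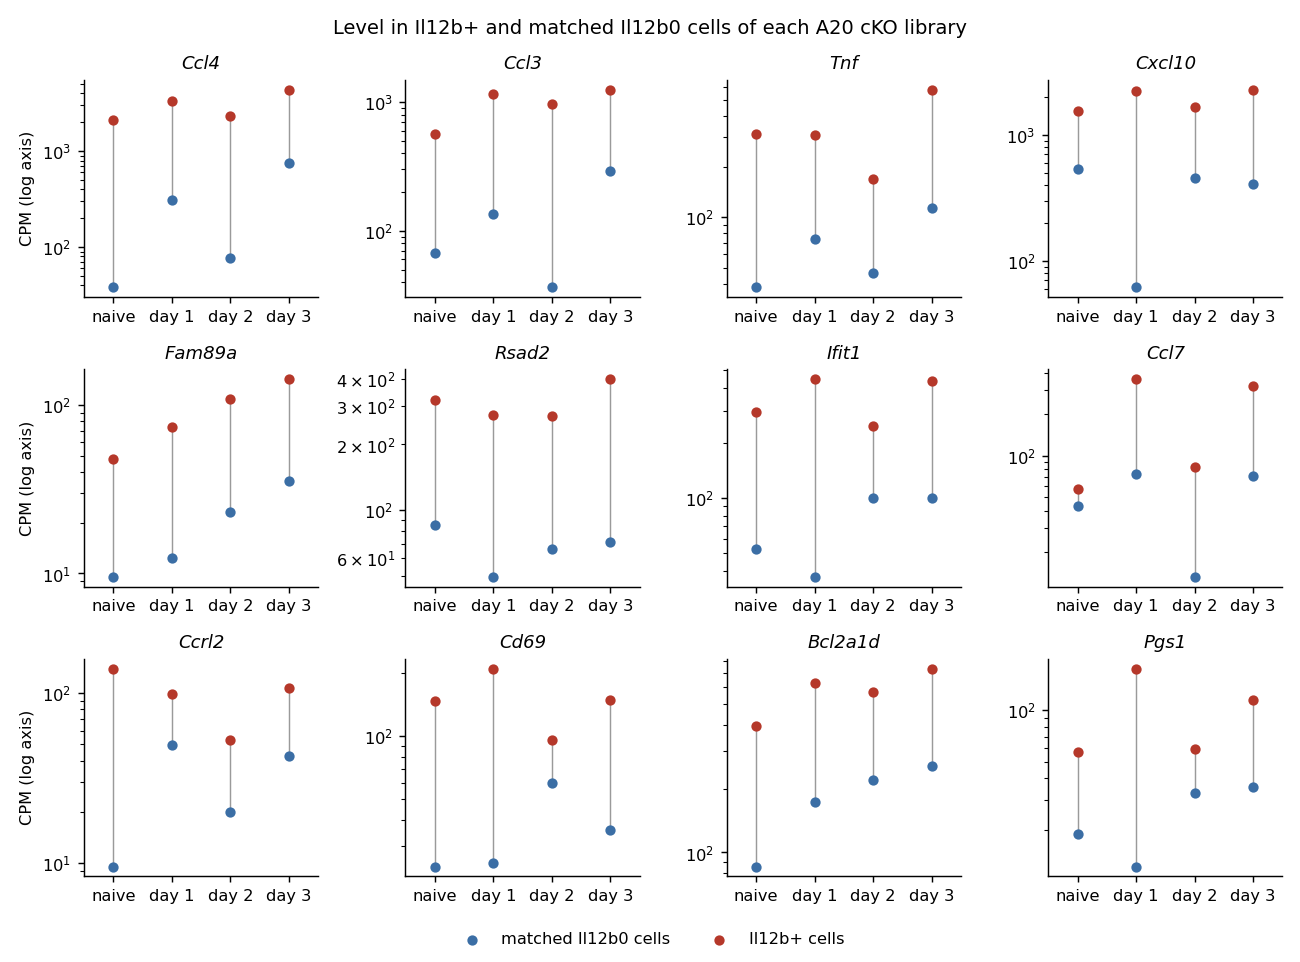
The 12 genes named by rule as higher in Il12b+ cells. Each panel is a gene, with its level in CPM on a log axis for the A20 cKO naive, day 1, day 2 and day 3 libraries, and joined points mark Il12b+ (red) and matched cells (blue) of the same library. Ccl4 lies between 2127 and 4388 CPM in Il12b+ cells and between 38.2 and 746 CPM in matched cells.

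Among NF-kB subunits and inhibitors 9 of 21 genes were tested and 2 were higher, with a list median of 0.50. Nfkbia, the inhibitor IkB-alpha and itself an NF-kB target, was at 806, 840, 638 and 782 CPM against 525, 321, 530 and 632 CPM, a narrow separation without overlap (log2 0.56, adjusted p = 0.0211, edgeR, 4 of 4 libraries). Nfkbiz, which encodes the nuclear IkB-zeta, was higher with a log2 difference of 1.55 (adjusted p = 0.00856). Nfkb1 (log2 0.65, adjusted p = 0.124), Relb (0.74, 0.42) and Rel (0.02, 0.988) did not pass, and no gene of this list passed with DESeq2 or without the naive library. Tnfaip3 had a log2 difference of 0.12 (adjusted p = 0.941).

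Of 19 listed Toll-like receptors and adaptors 6 were tested and 2 were higher, with a list median of 0.26. Tlr3, the endosomal receptor of double-stranded RNA, was at 525, 519, 347 and 562 CPM in Il12b+ cells against 124, 259, 172 and 213 CPM, without overlap (log2 1.39, adjusted p = 7.62e-06, edgeR, 4 of 4 libraries). Tlr2, a receptor of bacterial lipoproteins, was higher by a log2 difference of 0.86 (adjusted p = 0.00173). Of 13 tested transcription factors linked to Il12b control, 1 was lower and none higher: Fos (log2 -0.89, adjusted p = 0.0249), with Irf8 at -0.14 (adjusted p = 0.724), Irf1 at 0.54 (0.437), Spi1 at 0.23 (0.611) and Cebpb at -0.22 (0.518).

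Genes of dendritic cell maturation and costimulation were higher in part. Of 17 listed genes 7 were tested and 3 were higher, with a list median of 0.68. Cd83, a surface marker of mature dendritic cells, was at 610, 370, 172 and 377 CPM against 95.4, 173, 136 and 121 CPM, and the day 2 value in Il12b+ cells fell just inside the range of matched cells (log2 1.48, adjusted p = 0.000379, edgeR, 4 of 4 libraries). Icam1, an adhesion ligand of leukocytes, and Icosl, the ligand of ICOS on T cells, were higher by 0.80 (adjusted p = 0.0347) and 0.77 (adjusted p = 0.0239), and Cd86 was at 0.43 (adjusted p = 0.332). Cd40, the receptor through which T cells stimulate IL-12 production, had too few UMIs to test and was found in 34 of 171 Il12b+ cells (19.9%) and 12 of 171 matched cells (7.02%), a difference of 12.9 points (5.69 to 20.1). By library its counts were 12 against 0, 4 against 4, 9 against 4 and 9 against 4, so day 1 showed no difference. Without the naive library no gene of this list passed.

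Of the genes of antigen presentation, some of MHC class I and none of MHC class II were called. Of 17 tested genes of MHC class I and peptide loading 2 were higher, where 3.11% of all genes tested were. These were H2-K1 (log2 0.35, adjusted p = 0.0331, edgeR) and H2-Q7 (0.66, 0.0094). The list median was 0.26, and 7 were higher in all 4 libraries, where 11.2% of all genes tested were. No gene of the list passed with DESeq2 or without naive. None of 3 tested MHC class II genes passed in edgeR, 0 at an unadjusted p under 0.05 and 0 by DESeq2, with a median of -0.28. Of 11 tested inflammatory enzymes and acute response genes 3 were higher: Gpr84, a receptor of medium-chain fatty acids (0.98, adjusted p = 0.000433), Cybb, the catalytic subunit of the phagocyte NADPH oxidase (0.66, 0.0419), and Casp4, an inflammatory caspase (1.39, 0.0394). Of 9 tested survival genes 3 were higher, Bcl2a1a, Bcl2a1b and Bcl2a1d, near-identical paralogs of an NF-kB-induced BCL2 relative whose reads cannot be told apart with confidence. Bcl2a1d was at 396, 630 and 569 CPM in naive, day 1 and day 2 and 732 CPM on day 3, against 85.9, 173, 219 and 256 CPM (log2 1.66, adjusted p = 9.07e-08, edgeR, 4 of 4 libraries).

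The remaining genes named by rule as higher lay outside these lists. Ccrl2, an atypical chemokine receptor that binds chemerin, was higher by a log2 difference of 1.88 (adjusted p = 0.00455), Cd69, an early activation marker, by 1.74 (0.00129), Pgs1, an enzyme of cardiolipin synthesis, by 1.60 (0.0147) and Fam89a by 2.19 (0.000356), all by edgeR and in 4 of 4 libraries without overlap. Of all genes tested, 3.63% lay without overlap above matched cells and 2.24% below. Pgs1 rested on between 12 and 18 UMIs per library in Il12b+ cells, and it lost its call, as did Cd69, with other partner cells.

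**Figure D4:**
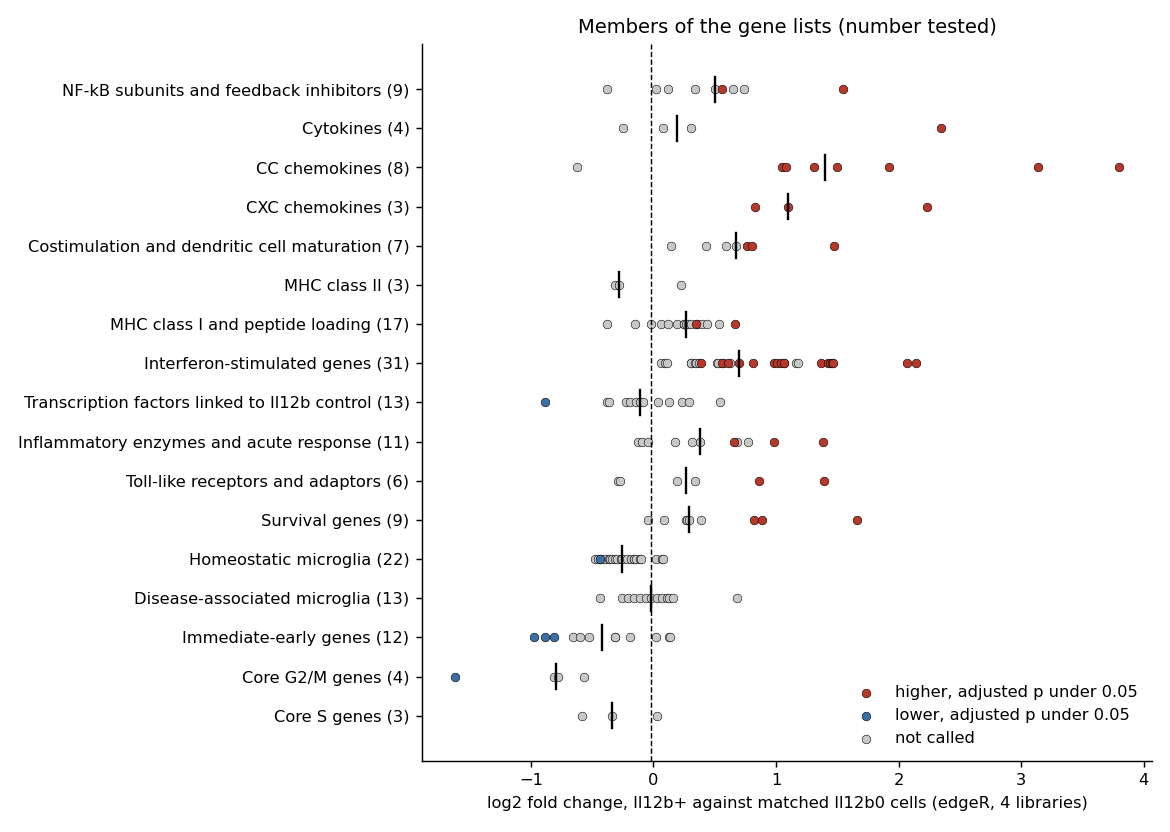
Log2 differences of listed genes between Il12b+ and matched cells. Each point is a tested gene, placed by the log2 difference of edgeR in its list, red (higher) or blue (lower) where the adjusted p was under 0.05, with a short line at the list's median and a dashed line at the median of all genes tested. The CC chemokines have the highest median, 1.40, and the core G2/M genes the lowest, -0.80.

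Homeostatic microglia genes leaned the other way, with small differences. All 22 listed genes were tested, 1 was lower and none was higher, 13 were lower in all 4 libraries, where 10.5% of all genes tested were, and the list median was -0.26 against -0.02 over all genes. Tmem119, a surface protein of resting microglia, was at 1660, 1222, 1386 and 1209 CPM in Il12b+ cells against 2108, 1888, 1717 and 1847 CPM. The classes did not overlap, and the log2 difference was -0.43 (adjusted p = 0.0094, edgeR, lower in 4 of 4 libraries). The call was lost without the naive library and by DESeq2, at log2 differences of -0.47 and -0.45. P2ry12, the purinergic receptor of surveying microglia, had a log2 difference of -0.26 (adjusted p = 0.249) and Cx3cr1 of -0.37 (0.0699), and neither passed. Of 13 tested disease-associated microglia genes none passed, 1 higher and 2 lower at an unadjusted p under 0.05 and 0 by DESeq2, with a median of -0.02.

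Some immediate-early genes were lower in Il12b+ cells. Of 12 tested, 3 were lower and none was higher, with a list median of -0.42. Btg2, an antiproliferative early response gene, was at 715, 173, 165 and 519 CPM against 1102, 309, 209 and 1399 CPM, lower in each library while the ranges overlapped (log2 -0.82, adjusted p = 0.00152, edgeR). Fos was at 391, 24.7, 9.92 and 263 CPM against 510, 24.7, 9.94 and 845 CPM and Egr1 at 134, 0, 3.31 and 128 CPM against 239, 12.3, 9.94 and 277 CPM, so nearly all of their UMIs were in the naive and day 3 libraries (Fos log2 -0.89, Egr1 -0.97, adjusted p = 0.0249 and 0.0458, edgeR). Dusp6, a phosphatase of ERK, was lower by a log2 difference of -0.74 (adjusted p = 0.0174). The list counts fell to 1 without naive, 0 without day 3 and 0 by DESeq2.

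Other genes named by rule as lower had mixed roles. Gpr183, the oxysterol receptor EBI2, was at 90.6, 61.7, 46.3 and 71.1 CPM in Il12b+ cells against 134, 222, 119 and 99.5 CPM, without overlap (log2 -0.98, adjusted p = 0.0383, edgeR, 4 of 4 libraries). Stmn1, which destabilises microtubules and rises in dividing cells, had a log2 difference of -0.82 (adjusted p = 0.0347) and the linker histone gene Hist1h1e one of -0.75 (0.0465). Helz (-0.98), Csmd3 (-0.95), Nrip1, a corepressor of nuclear receptors (-0.66), Rnase4 (-0.58) and Arhgap5 (-0.54) had adjusted p between 0.0147 and 0.0458. Each of the 12 lower genes lost its call under between 6 and 13 of the other settings tried, whereas Ccl4, Ccl3, Tnf, Cxcl10, Rsad2, Ifit1, Bcl2a1d, Fam89a and Ccrl2 lost theirs under none of those that gave a value.

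Over all 171 pairs, the shares of dividing cells in Il12b+ and matched cells had a difference whose counting interval included 0. With UMIs of at least 3 core G2/M genes as the definition, 16 of 171 Il12b+ cells (9.36%) and 22 of 171 matched cells (12.9%) were in G2/M, a difference of -3.51 points (-10.3 to 3.26). It turned to 3.77 points against all unmatched cells, which were matched neither by depth nor by library. Day 2 gave 59 of the Il12b+ and 608 of the unmatched cells, and naive animals gave 59 and 2863. With partners matched, the difference was -11.5 points at 2 or more (52 pairs) and -19.4 points at 5 or more Il12b UMIs (31 pairs). In S phase, by at least 3 core S genes, were 15 (8.77%) and 13 (7.60%), a difference of 1.17 points (-4.84 to 7.22). Both intervals of the comparison of all 171 pairs spanned 0. They do not cover the larger G2/M differences at 2 or more and 5 or more Il12b UMIs. Those larger differences are given without intervals, and each depends also on how many of the few partners drawn were in G2/M. Of 4 tested core G2/M genes 1, Cenpf, a kinetochore protein, was lower (log2 -1.62, adjusted p = 0.0206, edgeR). At an unadjusted p under 0.05 it was 3 of the 4, and the list median was -0.80. Of the 4, 3 were lower in all 4 libraries, where 10.5% of all genes tested were. Mki67, 1 of these, was all but equal in the naive library (log2 ratio -0.00042). By DESeq2, without naive or without day 3, 0 were called. Of 3 tested core S genes none was called, 0 in either direction at an unadjusted p under 0.05. Mki67 was found in 20 Il12b+ and 27 matched cells and Top2a in 23 and 29.

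The amount of Il12b in a cell went with the size of these differences. This division into cells with 1, with 2 to 4 and with 5 or more Il12b UMIs was made after the counts were seen, and its levels are given over all 4 libraries together. Ccl4 stood at 220 CPM in matched cells, 934 CPM in cells with 1 Il12b UMI, 3644 CPM with 2 to 4 and 8424 CPM with 5 or more. Tnf followed the same order at 60.0, 135, 282 and 853 CPM, and so did Cd83 at 125, 195, 390 and 873 CPM. Cxcl10 was at 427, 486, 3384 and 5314 CPM, where the matched cells are the partners of Il12b+ cells of every step. Against their own partners, cells with 1 Il12b UMI were higher in Cxcl10 (log2 0.90, adjusted p = 0.0064, edgeR). The levels were 170, 897, 636 and 239 CPM in naive, day 1, day 2 and day 3, against 154, 56.0, 432 and 140 CPM. Tlr3 and Ifit1 were at 857 and 781 CPM at 2 to 4 UMIs and 853 and 743 CPM at 5 or more, but the step of 2 to 4 holds 3 to 8 cells per library and its place varied between libraries: Tlr3 was higher in it than at 5 or more in naive and day 3 and lower on days 1 and 2. Ccl4, Tnf, Cd83, Cxcl10 and Tlr3 were each higher at 5 or more UMIs than at 1 in 4 of 4 libraries.

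P2ry12 went down over the same steps, from 1372 CPM in matched cells and 1424 CPM at 1 Il12b UMI to 748 CPM at 2 to 4 and 511 CPM at 5 or more. Gpr34, a receptor of lysophosphatidylserine and a microglia signature gene, went from 479 and 464 CPM to 152 and 71.1 CPM. Tmem119 was at 1873, 1573, 1074 and 1021 CPM. Irf8, a lineage factor of microglia, was at 623, 613, 521 and 427 CPM and Maf at 334, 372, 347 and 155 CPM. P2ry12, Gpr34, Tmem119 and Maf were lower at 5 or more UMIs than at 1 in 4 of 4 libraries, and Irf8 in 3 of 4. Of the 100 genes called higher, all 100 had a larger difference from matched cells at 5 or more UMIs than at 1, with medians of 1.68 and 0.45 log2, a description that the calls themselves in part fix, since cells of every step entered them.

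**Figure D5:**
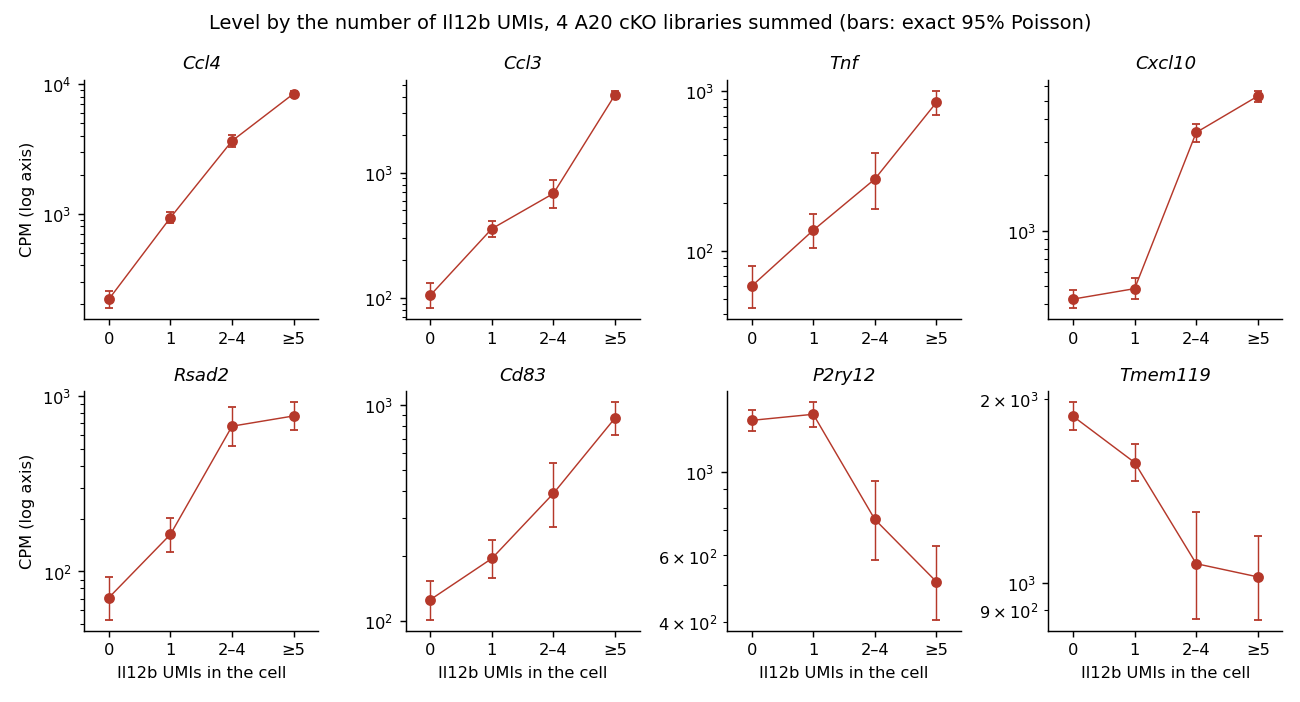
Gene levels by the number of Il12b UMIs in the cell. The level in CPM, on a log axis, is drawn for matched cells with 0 Il12b UMIs (171 cells) and for cells with 1 (119), 2 to 4 (21) and 5 or more (32), summed over the 4 A20 cKO libraries, with 95% Poisson intervals. Ccl4 goes from 220 to 8424 CPM and P2ry12 from 1372 to 511 CPM.

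The classes were then compared with their own matched cells in the same test. Cells with at least 2 Il12b UMIs had 86 genes higher (8.92% of 964 tested) and 59 lower (6.12%), together 15%. At this threshold 12 of 19 tested homeostatic genes were lower, with a median of -0.81, among them P2ry12, Tmem119, Cx3cr1, Fcrls, Gpr34, Csf1r, Selplg, Mef2c, Golm1, Sparc and Rhob. P2ry12 was at 822, 328, 460 and 648 CPM in naive, day 1, day 2 and day 3 against 1934, 1128, 835 and 691 CPM in matched cells (log2 -0.92, adjusted p = 0.0142, edgeR, 4 of 4 libraries), with the naive value inside the matched range. Gpr34 was at 162, 182, 68.2 and 43.2 CPM against 761, 364, 426 and 288 CPM, without overlap (log2 -2.17, adjusted p = 0.000501, edgeR, 4 of 4 libraries). CC chemokines were higher for 7 of 7 tested, with a median of 2.20, and interferon-stimulated genes for 17 of 26, with a median of 1.11.

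Cells with 5 or more Il12b UMIs had 44 genes higher (7.9% of 557 tested) and 32 lower (5.75%), together 13.6%. Ccl4 was higher by a log2 difference of 5.60, Tnf by 3.71 and Cd83 by 3.01, and Dusp6 (-3.24), Gpr34 (-2.62) and Stmn1 (-2.61) were lower, all at an adjusted p under 0.05 in edgeR. Of 16 tested homeostatic genes 7 were lower, and of 7 tested transcription factors linked to Il12b control 2 were lower, Irf8 (-0.91, adjusted p = 0.0489) and Maf (-1.35, 0.0274). At the level of cells, 31 such cells against 31 matched cells held Ccl4 in 27 and 7, Tnf in 26 and 9, Cd83 in 25 and 11, Cd40 in 14 and 2 and Il27 in 10 and 0. Core G2/M cells numbered 0 of 32 at 5 or more Il12b UMIs, which allows a share of up to 9.38%, 2 of 21 at 2 to 4 UMIs, 14 of 119 (11.8%) at 1 UMI and 269 of 4861 (5.53%) among A20 cKO cells without Il12b. The cells without Il12b were matched here neither by depth nor by library. Their median was 3092 UMIs, against 3897 at 1 Il12b UMI and 4434 at 5 or more.

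Cells with exactly 1 Il12b UMI, the class nearest to the threshold, had 13 genes higher (0.562% of 2313 tested) and 0 lower in edgeR, with 87 and 56 at an unadjusted p under 0.05. Ccl4 (log2 1.99), Ccl3 (2.03), Rsad2 (2.00), Ifit1 (1.33), Tnf (1.27), Ms4a4c (1.21), Ifit2 (1.01), Ccl2 (0.99), Bcl2a1d (0.98), Cxcl10 (0.90), Ifit3 (0.88), Cxcl13 (0.87) and Ccl12 (0.57) were the 13. None of 21 tested homeostatic genes was called in this class, with a median of -0.13. Whether some of these cells took up a single Il12b molecule from free RNA was not tested.

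Markers of other cell types moved with the class to a small extent. Of Il12b+ cells 105 of 171 (61.4%, 53.7 to 68.7%) held at least 2 marker genes of another cell type, against 90 of 171 matched cells (52.6%, 44.9 to 60.3%), and Ms4a4c carried most of the monocyte list. Limited to cells with fewer than 2 such genes, 66 Il12b+ cells remained, 973 genes could be tested and 11 were higher and 0 lower in edgeR, with 38 and 24 at an unadjusted p under 0.05. Of the 100 genes called higher 49 could still be tested, and all 49 kept their direction. The calls themselves in part fix this, since the remaining Il12b+ cells had also entered them.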

How the data were processed

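RNA of YFP(+) cells was counted in 8 single-cell libraries, 1 per genotype and time point. The deposited values are raw counts, UMIs of each gene in each cell barcode, which the authors made with Cell Ranger 2.1.1 on mm10 per the submitters' processing notes, with no normalization. The labels name the kit as v3.1 and the methods as v3. Il12b+ cells and all gene lists were chosen with earlier results of these data known. Each Il12b+ cell was paired by nearest total UMIs (log2 difference at most 0.15, random seed 1) without replacement within its library. Counts of the 2 classes were summed per library and tested in R 4.3.3 with edgeR 4.0.16 (glmQLFit and glmQLFTest, TMM, library as block, at least 80 UMIs over the 8 sums, Benjamini-Hochberg over all genes, threshold 0.05), tested first on simulated data. Il12b was left out of the table, and DESeq2 1.42.0 was an alternative. No test was made between libraries. Matching and intervals used Python 3.11.15, numpy 2.4.6, scipy 1.17.1 and pandas 2.3.3, and figures matplotlib 3.10.9.

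Besides list members, the text names the 12 genes with the largest positive and the 12 with the largest negative log2 difference among called genes whose mean reached 50 CPM and that had 1 direction in all 4 libraries, without mitochondrial, ribosomal-protein, predicted, Xist and Y-linked genes, plus the phase genes and partner subunits. Some genes of the rule or lists are not reported here. Of 325 listed genes, 321 were in the table, 172 were tested, 42 were higher and 5 lower. Cxcl11, Cebpd, Acod1 and Clec7a were not matched by symbol. Of 27998 gene identifiers 27645 (98.7%) matched GENCODE M21, from which coordinates come, and 27025 RefSeq promoters were searched for motifs. No doublet caller was run. The methods exclude doublets in the sort, which does not remove those formed in droplets. Sorted cells were resuspended in serum-free medium before library preparation. Alternatives changed the matching, the thresholds, the scaling, the filter, the block, the tool and the libraries used.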

Additional observations from a re-analysis of the deposited data

Results flagged for a closer look

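The class difference pointed in opposite directions in 2 libraries for 5 of 186 genes whose intervals were compared, in the sense that the 95% counting intervals of the ratio lay on opposite sides of 0. Apoe, a lipid carrier of activated microglia, was higher in Il12b+ cells than in matched cells on day 1, by 1.35 on the log2 scale, and had a log2 ratio of -1.81 on day 3. Tyms, a nucleotide synthesis enzyme of S phase, was higher on day 2 at 1.31 and had -2.43 on day 3. Junb, an immediate-early factor, was at 0.76 on day 1 and -0.65 on day 2. Ifi27l2a, an interferon-stimulated gene, was at 0.39 on day 3 and -0.44 in naive animals, and B2m, the light chain of MHC class I, at 0.11 in naive animals and -0.20 on day 1. The difference between the libraries was not tested for any of the 5 genes, since each library stands alone and the intervals cover counting error only.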

How the results depend on the processing

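Of the genes recomputed wherever a setting left them enough UMIs (those named by rule, with Apoe, Cd83, Cx3cr1, Nfkbia, P2ry12 and Tmem119), the direction turned under an alternative for Apoe alone, whose log2 difference of -0.44 lay between -0.68 (without day 1) and 0.048 (without day 3) with 1 library left out and was 0.25 without cells holding 2 or more marker genes of other cell types. Against 100 genes higher, 156 were called with 3 partners per cell, 250 against all unmatched cells, 37 by DESeq2, 45 with at least 400 UMIs over the 8 sums, 49 without the library block, 11 without cells holding other-type genes, 44 with at least 5 Il12b UMIs and 13 with exactly 1. Leaving out 1 library gave between 33 and 93. Against 19 lower, these were 36 with 3 partners, 92 unmatched, 34 within the cycling class, 59 with at least 2 Il12b UMIs, 33 without cells over the 95th percentile of UMIs, 32 with at least 5, and 0 by DESeq2, without the block (88 at an unadjusted p under 0.05), without other-type cells or with exactly 1 UMI. Leaving out 1 library gave between 1 and 19. Of the 100 higher genes DESeq2 gave 79 an adjusted p. Partners drawn afresh gave 103 and 26, with 78 of the 100 called again, so which genes pass depends in part on the partner cells. Fewer cells or genes were tested in the settings by UMI number, by other-type genes, by the filter and by library, and elsewhere the cause was not tested.

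The A20 cKO shares of 2.02, 2.71, 8.85 and 5.38% fell with depth and threshold, as their construction requires: naive to 1.49% at 2000 UMIs, 1.03% at 1000, 0.650% at 2 or more Il12b UMIs and 0.411% at 5 or more, day 1 to 1.69, 1.24, 0.903 and 0.564%, day 2 to 5.43, 3.15, 1.80 and 1.35%, with 4.47% at 2000 UMIs and another seed, and day 3 to 3.16, 2.33, 2.51 and 1.08%, so that day 3 was above day 2 at 2 or more UMIs. Control day 1 went to 0.0602% at 1000 UMIs, 0.0620% with another seed, 0.0301% at 2 or more and 0 at 5 or more, control day 2 to 0 at 1000 UMIs and at 5 or more, and control day 3 to 0 at 5 or more. As a mean over cells the level was 19.9 CPM in naive and 110.9 CPM on day 2, and without the top cell it was 28.1, 77.7 and 43.3 CPM on days 1, 2 and 3, and 29.0 CPM on day 1 without shared barcodes. The G2/M difference of -3.51 points over all libraries was 3.77 against unmatched cells, which were matched neither by depth nor by library. It was -11.5 at 2 or more and -19.4 at 5 or more Il12b UMIs. On day 2 these were -33.3 and -22.2, and on day 3 the difference was -50.0 at 5 or more. The S difference was 8.33 at 2 or more and 11.1 at 5 or more on day 2, and -25.0 at 5 or more on day 1. These G2/M and S values of single days rest on few pairs. Day 2 had 12 pairs at 2 or more and 9 at 5 or more, and at 5 or more day 1 had 4 and day 3 had 6. The class test pairs the classes through the library block, and 49 genes were higher and 0 lower without it. Between groups, no paired analysis was possible because each group had 1 library.

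Depth limits what can be said of the rarer genes. Most Il12b+ cells held a single Il12b UMI, so cells counted as negative are cells in which Il12b was not captured, and genes under 80 UMIs, such as Il12a, Il23a, Il27 and Cd40, were outside the test. Pooled animals, 1 library per group and shared barcodes leave the variation between animals unmeasured.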
